A study of Mus musculus with 15 samples.

Results

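A list of 43 mouse genes for DNA replication and nucleotide synthesis was followed in intestinal organoids, cultures of gut epithelium that keep dividing stem cells and their differentiated progeny. The members were chosen by function: genes that mark and license replication origins, the MCM helicase, CDC45 and GINS, the sliding clamp and its loader, the replicative polymerases and primase, the proteins that bind single-stranded DNA and join Okazaki fragments, and the enzymes that supply deoxynucleotides. The choice was made with earlier results of these data known. All 43 were found by symbol among the 43629 genes of the count table.

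RNA sequencing compared 5 WT, 4 Apc and 4 P-Rspo3 libraries, all from C57B6/129 mice. WT comprised the Apc flox/flox lines A1, A2, A5 and A6, whose floxed allele is intact, and NAIVE, a culture carrying an inducible Cas9 that had not been exposed to doxycycline. Apc comprised the matching lines in which Apc had been deleted, the scaffold of the beta-catenin destruction complex (A1_plus, A2_plus, A5_plus and A6_plus, genotype Apc delta/delta). P-Rspo3 comprised EN4d, EN15d, EN_M and EN_F, polyclonal populations with the Ptprk-Rspo3 inversion made by doxycycline-inducible Cas9, selected in medium without R-spondin. WT was kept in ENR medium, which contains EGF, Noggin and R-spondin, and both mutant groups were kept in EN medium without R-spondin, so genotype and medium cannot be told apart in either comparison with WT. P-Rspo3 and NAIVE do not come from the flox lines. Line origin therefore cannot be told apart from genotype between P-Rspo3 and Apc, or between P-Rspo3 and the flox WT libraries. Doxycycline, Cas9 activity and the selection came with the inversion, so they cannot be told apart from it either in comparisons with P-Rspo3. The labels do not say whether the libraries of a group came from separate animals, so p-values measure only the spread between these libraries.

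The cell copies its genome once per division in ordered steps. In G1, the origin recognition complex with CDC6 and CDT1 loads MCM2 to MCM7 onto DNA as an inactive double helicase. At the start of S phase, CDC45 and GINS join and the helicase opens the duplex, polymerase alpha with primase lays down primers, and polymerases epsilon and delta extend them on the clamp PCNA. Many of these genes are transcribed around the G1/S boundary by E2F factors, and in the gut they are known as markers of the transit-amplifying crypt compartment.

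The libraries held 28902729 to 35528495 counts. Apc RNA was not lower after deletion, at 253 to 279 CPM in Apc and 143 to 200.1 CPM in WT, and since a count over the whole gene does not isolate the deleted part, it does not check the labels. Rspo3, the gene placed under the Ptprk promoter, was at 18.6 to 34.2 CPM in P-Rspo3 and at most 0.0319 CPM in WT. Here CPM is the count relative to the library size after TMM scaling, the edgeR normalization. The epithelial markers were present in every group, at a summed FPKM of 1896 to 2376, and the stromal markers summed to at most 0.633 FPKM.

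The 43 genes took a larger share of all counts in Apc than in the other groups. The share was 0.2696%, 0.257%, 0.232%, 0.310% and 0.273% in the WT libraries A1, A2, A5, A6 and NAIVE, with a mean of 0.268% ± 0.0283 (SD, n = 5). It was 0.258%, 0.2875%, 0.2915% and 0.225% in the P-Rspo3 libraries EN4d, EN15d, EN_M and EN_F, with a mean of 0.2655% ± 0.031 (SD, n = 4). It was 0.537%, 0.4996%, 0.514% and 0.467% in A1_plus, A2_plus, A5_plus and A6_plus, with a mean of 0.505% ± 0.0293 (SD, n = 4). Every Apc library lay above every other library, and the WT and P-Rspo3 ranges overlapped. These are shares of raw counts, before TMM scaling. After that scaling, the median log2 fold change of the 40 tested members in Apc against WT was 0.66. In bulk RNA, more cells of one type and more RNA per cell cannot be told apart.

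**Figure D1:**
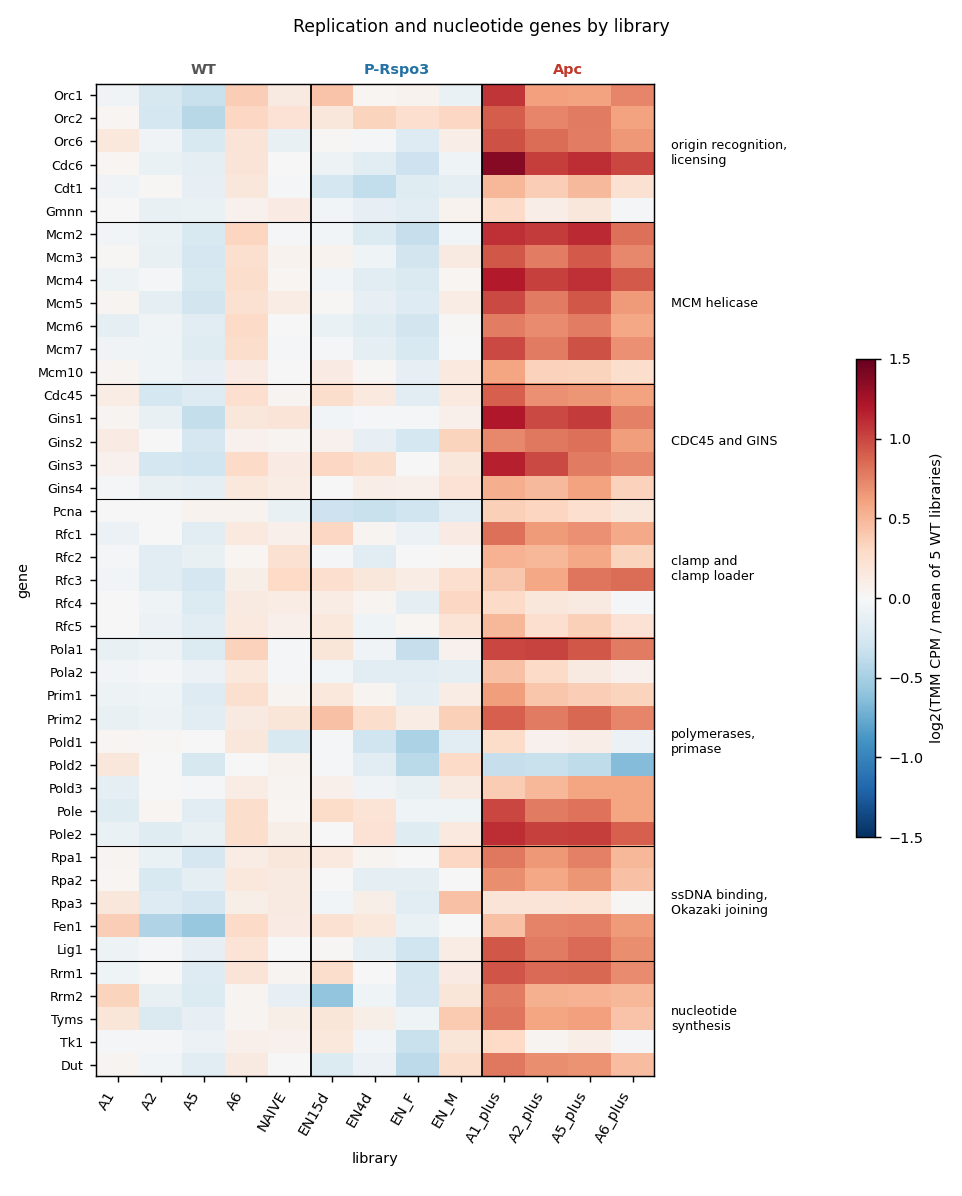
TMM-scaled CPM of the 43 genes (rows, grouped by role) in 13 libraries (columns), as log2 ratio to the mean of the 5 WT libraries. The 4 Apc columns are red in nearly every row, with medians of 0.59 to 0.79, Pold2 is blue in all 4, and the P-Rspo3 columns have medians of -0.16 to 0.12.

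The members' level differed between libraries of a group. The median over the 43 genes of the log2 ratio to the WT mean was 0.00, -0.07, -0.18, 0.16 and 0.06 in A1, A2, A5, A6 and NAIVE. In A6, 42 of 43 genes lay above the WT mean, and in NAIVE 32, in A1 22, in A2 5 and in A5 1 did. In P-Rspo3 this number was 17 in EN4d, 25 in EN15d, 34 in EN_M and 7 in EN_F. Within P-Rspo3 the median ran from -0.16 in EN_F to 0.12 in EN_M, and within Apc from 0.59 in A6_plus to 0.79 in A1_plus. The coefficient of variation of a gene within a group had a median of 11.5% in WT, 8.94% in Apc and 9.63% in P-Rspo3.

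Levels between genes were compared in FPKM, which divides by transcript length. In WT the median over 40 genes was 23.4 FPKM, from 2.17 ± 0.42 (SD, n = 5) for Gins3, a GINS subunit, to 122 ± 6.34 (SD, n = 5) for Pcna, the clamp. Gins3 and Orc1 were the lowest members and Pcna the highest in all 3 groups. Pold2, the second subunit of polymerase delta, was next to Pcna in WT and in P-Rspo3, at 78.4 ± 10.2 (SD, n = 5) and 74.3 ± 19.1 FPKM (SD, n = 4), and these 2 values differed by less than their SDs. In Apc the FPKM of Mcm6, 109 ± 4.59 (SD, n = 4), stood second and that of Pold2 was 72.1 ± 5.83 (SD, n = 4). FPKM is not used here for Cdt1 and Gins2, which have no row in that table, or for Dut, which is listed at 0 in most libraries although its counts are high.

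**Figure D2:**
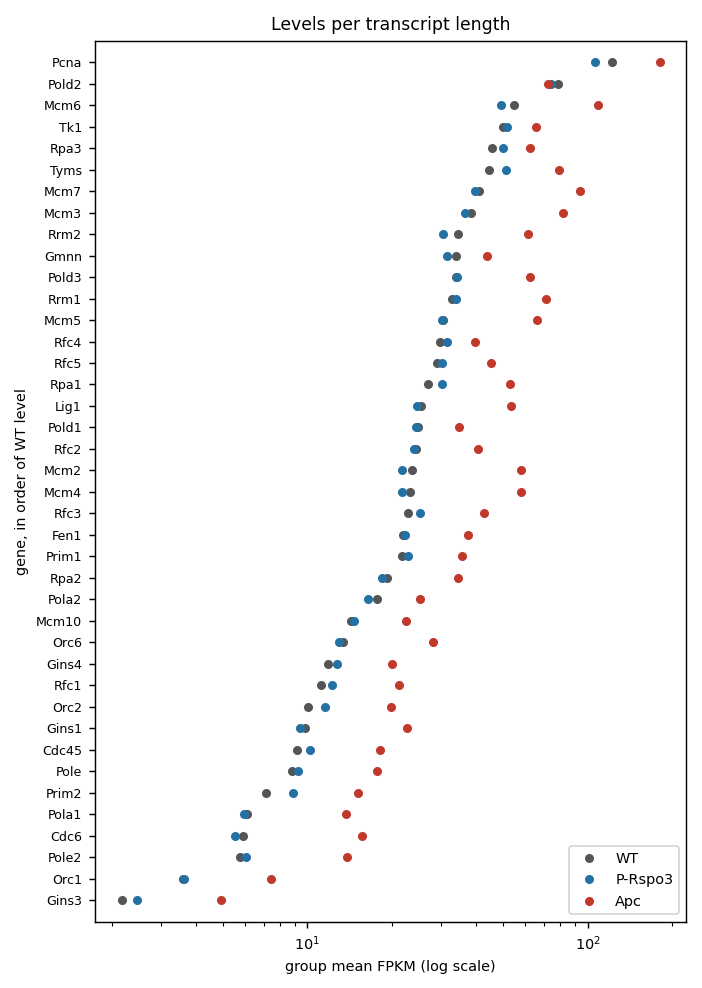
Group mean FPKM of 40 genes on a log axis, ordered by WT level, for WT (gray), P-Rspo3 (blue) and Apc (red). Gray and blue points nearly coincide from Gins3 at 2.17 to Pcna at 122 FPKM in WT, and the red point lies to the right for each gene except Pold2. Over all genes, log2 FPKM ratios of Apc to WT ran above the TMM-scaled changes by a median of 0.28. A red point to the right is therefore not by itself an increase. Gmnn, Rfc4, Pold1, Rpa3 and Tk1 did not pass on the TMM scale.

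Subunits of the same complex did not sit at one level. Among MCM2 to MCM7, which act as a hexamer of 1 copy each, the highest mean FPKM was 2.37 times the lowest in WT, 2.26 times in P-Rspo3 and 1.88 times in Apc, with Mcm6 highest in each group. Among Gins1, Gins3 and Gins4 the ratio was 5.44 in WT, with Gins4 highest, and 4.6 in Apc, with Gins1 highest. Rrm1 and Rrm2, the large and small subunits of ribonucleotide reductase, differed by 1.05 times in WT and 1.17 times in Apc. The higher mean was that of Rrm2 in WT and that of Rrm1 in Apc.

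The promoters of these genes were read for words that E2F factors are known to bind, because this is the sequence feature the family is best known for. RefSeq promoters on GRCm38.p6, from 250 bases before to 50 bases after the start, were matched for 35 of the 43 genes. One of 4 words (TTTCCCGC, TTTCGCGC, TTTGCCGC or TTTGGCGC, on either strand) was held by 14 of 35 genes, or 40.0%. Among all 27025 genes of the table the share was 2.6%, and among the genes tested in Apc against WT it was 4.47%. A match is a description of the letters and not of binding.

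The windows of 30 bases below come from Mcm5 and from genes whose values are given later. These windows show in capitals the E2F word itself or its reverse complement, read along the gene strand. They are shown as examples from licensing, helicase, GINS and polymerase genes, among 20 positions of which 11 begin before the start. Words after the start lie in Mcm3, Lig1 and Pole2, among others. Pold1, which did not pass in Apc against WT, holds a word, and Mcm2, which rose, holds none.
Cdc6, chr11:98908002-98908031, plus strand, word starting 138 bases before the start: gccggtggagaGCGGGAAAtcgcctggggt
Orc1, chr4:108579416-108579445, plus strand, 27 bases before the start: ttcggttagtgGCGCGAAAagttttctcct
Mcm5, chr8:75109345-75109374, plus strand, 153 bases before the start: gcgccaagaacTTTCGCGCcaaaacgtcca
Mcm6, chr1:128359734-128359763, minus strand, 47 bases before the start: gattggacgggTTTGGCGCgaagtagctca
Mcm7, chr5:138172030-138172059, minus strand, 165 bases before the start: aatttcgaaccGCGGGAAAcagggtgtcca
Gins3, chr8:95633507-95633536, plus strand, 41 bases before the start: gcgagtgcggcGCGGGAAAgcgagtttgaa
Pola1, chrX:93632275-93632304, minus strand, 138 bases before the start: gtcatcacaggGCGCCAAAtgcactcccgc
All 7 windows lie before the RefSeq start used here. The GENCODE M21 gene starts farther upstream for Cdc6, Gins3 and Mcm7, so that their windows lie inside it, and within the window for Orc1. In Mcm5 another word, on the other strand, overlaps the one shown.

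By role, the words were found in 4 of 6 matched MCM genes, 4 of 7 polymerase and primase genes, 3 of 5 licensing genes and 0 of 5 nucleotide synthesis genes. The CCAAT box (CCAAT) was held by all 6 matched MCM genes and by 22 of 35 members, or 62.9%, against 42.9% of tested genes. The GC box (GGGCGG) was held by 74.3% against 66.0%, the E-box (CACGTG) by 17.1% against 11.3%, and the cell-cycle element CHR (TTTGAA) by 14.3% against 14.6%. A word of TCF/LEF factors (ATCAAAG or TTCAAAG, the latter containing the CHR on its other strand) was held by 1 of 35, or 2.86%, against 7.47%.

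The first comparison set Apc in EN medium against WT in ENR medium. Of the 43, 40 passed the filter on low values (4 or more libraries with an FPKM no lower than 0.1) and were tested. In Apc, 34 of these rose and 1, Pold2, fell, at an adjusted p under 0.05, where 30.0% of the 16749 tested genes rose and 29.0% fell. The median log2 fold change was 0.66 over the members and 0.00 over all tested genes. Most changes were under 2-fold: 3 members rose by more than that (Cdc6, Mcm4 and Mcm2), where 12.2% of tested genes did. This count was 1 without A5, 2 without A1 or A2, 5 without NAIVE, A2_plus or A6_plus, and 6 without A6. The groups did not overlap, with Apc higher, in 33 of 40 members, against 27.2% of tested genes, and with Apc lower in 1, Pold2, against 24.7%. An unadjusted p under 0.05 was reached by 35 of 40 members and by 62.8% of tested genes. The size depends on the scale, since log2 FPKM ratios ran above the TMM-scaled changes by a median of 0.28 over all genes. On log2(FPKM + 1), limma called 39 members higher, adding Gmnn, Rfc4, Pold1, Rpa3 and Tk1, and 0 lower, where 43% of tested genes were higher and 19.2% lower on that scale. Of the members 12 were past 2-fold there, against 8.47% of tested genes.

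Markers of other cell types differed between Apc and WT as well. The 12 enterocyte markers all fell, from a summed FPKM of 4131 to 11095 in WT to 64.1 to 91.4 in Apc. The 6 Paneth cell markers summed to 6198 to 9866 FPKM in WT and to 651 to 1566 in Apc, where 5 of 6 fell and 1 rose, and all 6 goblet cell markers fell. Of 5 enteroendocrine markers 3 fell, as did all 3 tested tuft cell markers. Of 5 stem cell markers 4 rose and 1, Olfm4, fell, from 1002 to 2408 CPM in WT to 0.458 to 3.89 CPM in Apc. The 2 cycling cell markers, Mki67 and Top2a, rose, with log2 fold changes of 0.55 (SE 0.11, adjusted p = 0.00161) and 0.76 (SE 0.10, adjusted p = 5.46e-05), beside the members' median of 0.66. Immune markers summed to 1.78 to 3.29 FPKM in WT and 3.89 to 10.5 in Apc, and endothelial markers to 0.341 to 0.507 and 0.777 to 1.28, with Kdr at 0 in both. The part of these shifts in the members' changes was not tested.

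**Figure D3:**
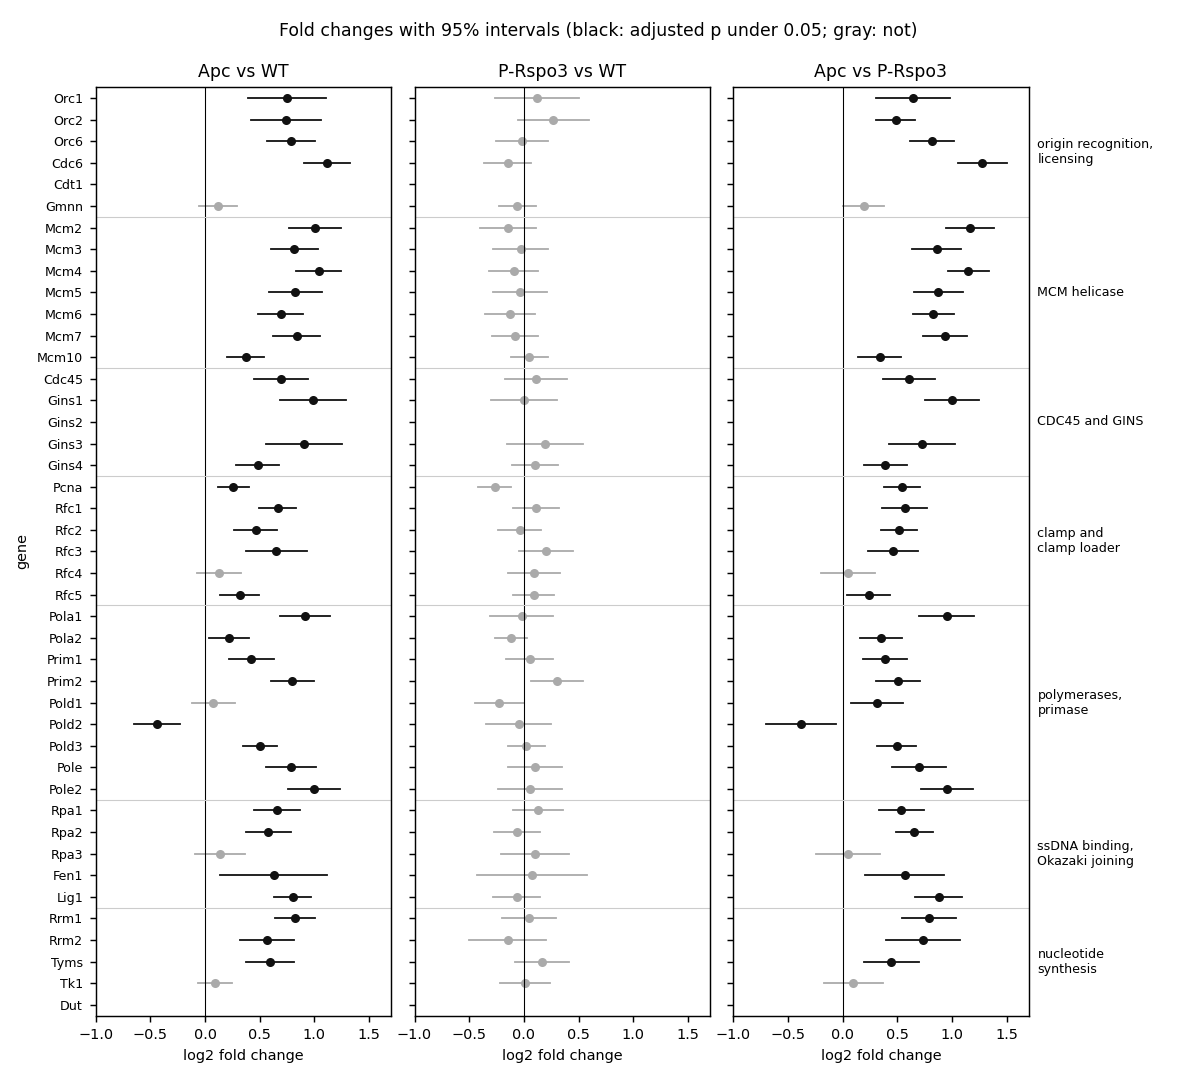
Log2 fold changes (points) with 95% intervals (lines) of the 40 tested genes in 3 comparisons; black marks an adjusted p under 0.05 and gray the rest. In Apc against WT 34 genes are black to the right of 0 and Pold2 to its left, and in P-Rspo3 against WT all 40 are gray.

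Licensing genes rose, except for geminin. Values below are TMM-scaled CPM, given in the order A1, A2, A5, A6 and NAIVE for WT, A1_plus, A2_plus, A5_plus and A6_plus for Apc, and EN4d, EN15d, EN_M and EN_F for P-Rspo3. Cdc6, the loader of the MCM ring, had 24.1, 22.1, 21.3, 27.1 and 23.6 in WT, 60.8, 48.7, 51.0 and 47.3 in Apc, and 21.0, 22.4, 22.6 and 19.1 in P-Rspo3. The Apc libraries stood well above the rest, which overlapped each other, and the fold change against WT was 2.17 (log2 1.12, SE 0.09, adjusted p = 2.83e-06), the largest of the members. Orc6, a subunit of the origin recognition complex, had 33.3, 28.7, 25.4, 34.0 and 27.6 in WT, 57.7, 53.3, 50.6 and 46.8 in Apc, and 29.3, 30.1, 31.9 and 26.1 in P-Rspo3. Orc6 likewise separated Apc from both other groups (log2 0.79, SE 0.10, adjusted p = 5.53e-05). Orc2 had 26.6, 21.7, 19.5, 32.4 and 30.4 in WT, 49.1, 43.4, 44.7 and 39.6 in Apc, and 32.8, 29.3, 32.4 and 31.2 in P-Rspo3. WT was spread widely for Orc2 but stayed below Apc (log2 0.74, SE 0.14, adjusted p = 0.00112), and 29.8% of its exonic bases are shared with Nif3l1 on the other strand, so some of its counts may not be its own.

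Orc1, which is made and degraded in each cycle, rose by 0.75 on the log2 scale (SE 0.16, adjusted p = 0.00211), from 7.58 to 12.3 CPM in WT to 14.5 to 20.0 CPM in Apc. It shares 10.8% of its exonic bases with Gm12743. Gmnn encodes geminin, the inhibitor that binds CDT1 after origins have fired. It had 39.7 to 46.4 CPM in WT and 42.1 to 52.2 CPM in Apc, overlapping ranges, with a log2 fold change of 0.12 (95% interval -0.05 to 0.29, adjusted p = 0.214), although upper-quartile scaling and both FPKM fits put it past the threshold. Cdt1 was outside the FPKM filter, and with a filter on counts, chosen after the data were seen, it rose by 0.38 (SE 0.07, adjusted p = 0.00119), from 57.0 to 70.2 CPM in WT to 72.9 to 88.1 CPM in Apc.

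All 7 genes of the MCM group rose. The 6 helicase subunits changed by 0.69 to 1.04 on the log2 scale. Mcm4 had 106, 109, 95.1, 134 and 114 CPM in WT, 253, 226, 238 and 211 in Apc, and 98.7, 108, 114 and 95.7 in P-Rspo3. Its Apc libraries were about double the others, a fold of 2.05 against WT (log2 1.04, SE 0.09, adjusted p = 4.44e-06). Mcm2 had 115, 110.0, 101, 148 and 116 CPM in WT, 253, 243, 256 and 208 in Apc, and 103, 115, 115 and 92.8 in P-Rspo3. A6 was the high WT library and A6_plus the low Apc library for Mcm2, and the groups still did not overlap (fold 2.01, log2 1.01, SE 0.11, adjusted p = 1.52e-05). Mcm7 had 152, 151, 139.5, 189.6 and 156 CPM in WT, 312, 271, 307 and 253 in Apc, and 144, 156, 158 and 135 in P-Rspo3. Mcm7 rose by 0.84 (SE 0.10, adjusted p = 2.65e-05), and 12.6% of its exonic bases are shared with other genes, among them Ap4m1. Mcm6 changed least of the 6 (log2 0.69, SE 0.09, adjusted p = 8.56e-05), and the intervals of Mcm6 (0.48 to 0.90) and Mcm4 (0.83 to 1.25) overlapped. Mcm10, which is no part of the ring and helps to activate it, rose by 0.37 (SE 0.08, adjusted p = 0.00162).

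**Figure D4:**
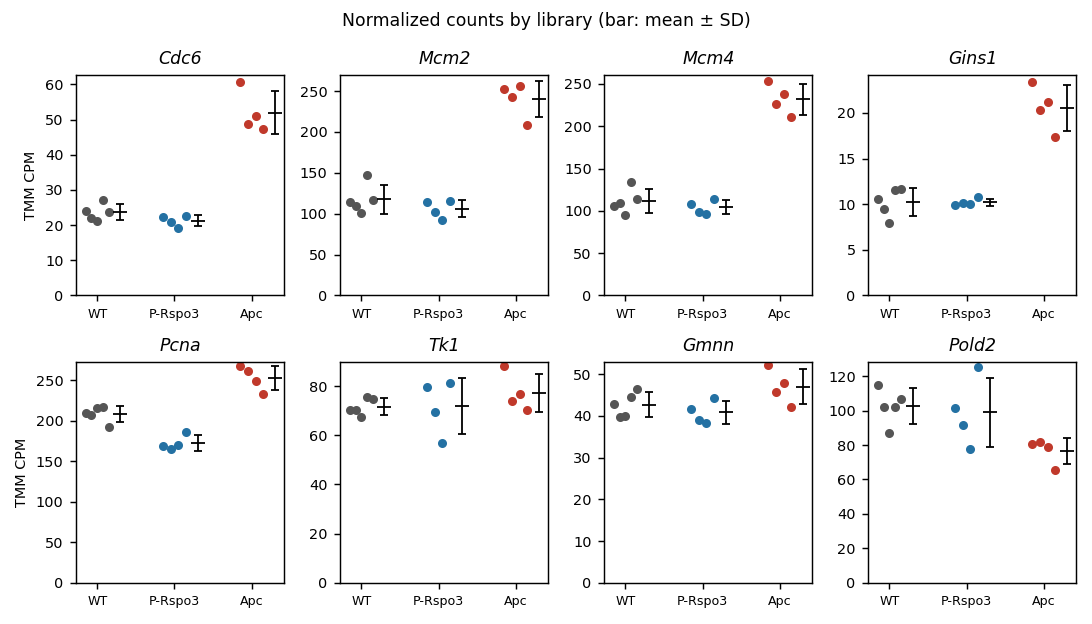
TMM-scaled CPM of 8 genes in each library (points) with the group mean and SD (bar), on axes that start at 0. For Cdc6, Mcm2, Mcm4 and Gins1 the Apc points lie at about double the WT points, Pcna is lowest in P-Rspo3, Tk1 and Gmnn overlap between groups, and Pold2 is lower in Apc than in WT.

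CDC45 and GINS, the cofactors that turn the MCM ring into an active helicase, rose in each of the 4 genes tested. Gins1 had 10.5, 9.45, 7.95, 11.5 and 11.7 CPM in WT, 23.4, 20.3, 21.1 and 17.3 in Apc, and 10.1, 9.91, 10.8 and 10.0 in P-Rspo3. The Apc values again stood apart (log2 0.99, SE 0.13, adjusted p = 9.31e-05). Cdc45 had 27.8, 21.5, 22.5, 30.6 and 26.6 CPM in WT, 48.0, 41.5, 40.9 and 39.2 in Apc, and 28.6, 31.0, 28.5 and 22.8 in P-Rspo3. Its increase was 0.70 (SE 0.11, adjusted p = 0.000296). Gins3 had 7.17, 5.71, 5.59, 8.41 and 7.47 CPM in WT, 15.5, 13.6, 11.8 and 11.3 in Apc, and 8.25, 8.50, 7.70 and 6.89 in P-Rspo3. Gins3, at the lowest FPKM of the list, rose by 0.90 (SE 0.16, adjusted p = 0.000487), and Gins4 by 0.48 (SE 0.09, adjusted p = 0.000726). Gins2, tested with the filter on counts, rose by 0.72 (SE 0.09, adjusted p = 4.46e-05), but 67.3% of its exonic bases are shared with Gse1.

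The clamp and its loader changed less, with a median of 0.39 over 6 genes. Rfc1, the large subunit of the loader, had 72.5, 77.8, 68.7, 85.9 and 81.8 CPM in WT, 137, 120.1, 125 and 115 in Apc, and 79.6, 95.8, 84.4 and 73.0 in P-Rspo3. Rfc1 was separated between Apc and both other groups (log2 0.66, SE 0.08, adjusted p = 2.82e-05). Rfc2 had 51.3, 46.0, 48.2, 52.8 and 60.9 CPM in WT, 74.2, 73.1, 77.3 and 65.1 in Apc, and 46.3, 50.9, 52.6 and 51.6 in P-Rspo3, and rose by 0.46 (SE 0.09, adjusted p = 0.000949). Rfc3 had 35.9, 33.1, 30.9, 39.1 and 45.5 CPM in WT, 48.9, 55.2, 64.4 and 65.8 in Apc, and 41.4, 43.8, 44.1 and 39.8 in P-Rspo3. Here A6_plus was the highest Apc library rather than the lowest, and the increase was 0.65 (SE 0.13, adjusted p = 0.00109). Rfc5 rose by 0.32 (SE 0.08, adjusted p = 0.00621), and Rfc4 had 0.13 (95% interval -0.07 to 0.33, adjusted p = 0.243). Exonic bases are shared with other genes for 15.1% of Rfc2 (Lat2), 12.7% of Rfc4 (Eif4a2) and 10.7% of Rfc5 (Wsb2).

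Pcna was singled out after its values were seen. It had 209, 207, 216, 217 and 193 CPM in WT, 267, 261, 248 and 233 in Apc, and 165, 168, 186 and 169.6 in P-Rspo3. Every Apc library lay above every WT library. The P-Rspo3 libraries lay below WT, a difference that did not pass (edgeR, adjusted p = 0.142). NAIVE_F, an ungrouped library whose P-Rspo3 genotype label conflicts with its title, had 225 CPM, above every WT library. The increase in Apc over WT was 0.26 (SE 0.06, adjusted p = 0.0043), among the smaller ones of the list. Pcna has 2 named pseudogenes, so a part of its reads may not have been assigned uniquely.

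The subunits of each polymerase differed in their change. In polymerase epsilon, the leading-strand enzyme, the catalytic Pole rose by 0.79 (SE 0.10, adjusted p = 7.26e-05) and Pole2 by 1.00 (SE 0.11, adjusted p = 1.47e-05). Its small subunits Pole3 and Pole4, outside the list and named after their values were seen, had 0.23 (SE 0.13, adjusted p = 0.149) and 0.09 (SE 0.09, adjusted p = 0.403). Pole2 had 11.4, 10.8, 11.3, 14.7 and 12.96 CPM in WT, 26.3, 24.9, 25.03 and 22.7 in Apc, and 14.2, 12.3, 13.5 and 10.8 in P-Rspo3. The subunits of polymerase delta, the lagging-strand enzyme, differed among themselves: the accessory subunit Pold3 rose by 0.50 (SE 0.07, adjusted p = 0.000112), the catalytic subunit Pold1 had 0.08 (95% interval -0.12 to 0.27, adjusted p = 0.492), and Pold2 fell by 0.44 (SE 0.09, adjusted p = 0.00198).

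Pold2 had 115, 102, 87.0, 102 and 107 CPM in WT, 80.8, 81.6, 78.9 and 65.5 in Apc, and 91.7, 101, 125 and 77.7 in P-Rspo3. Every Apc library lay below every WT library, while P-Rspo3 spanned both. On log2(FPKM + 1) the change in Pold2 was -0.11 (limma, adjusted p = 0.37), so its decrease held on the TMM scale and was lost on the FPKM scale. The interval of Pold1 (-0.12 to 0.27) did not overlap that of Pole (0.56 to 1.02), both catalytic subunits.

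Polymerase alpha and primase start each strand. Pola1, the X-linked catalytic subunit, had 40.8, 41.8, 38.2, 55.9 and 43.1 CPM in WT, 88.2, 88.5, 83.6 and 75.5 in Apc, and 42.3, 49.8, 46.0 and 34.5 in P-Rspo3. A6 stood apart among the WT libraries, and the increase was 0.91 (SE 0.10, adjusted p = 2.57e-05). Prim2, the large primase subunit, had 17.5, 17.9, 16.7, 20.7 and 21.2 CPM in WT, 34.9, 32.3, 34.0 and 31.2 in Apc, and 22.6, 25.6, 24.1 and 20.4 in P-Rspo3. Prim2 rose by 0.80 (SE 0.09, adjusted p = 2.23e-05) and Prim1, the catalytic primase subunit, by 0.42 (SE 0.09, adjusted p = 0.00239). Pola2 passed narrowly (log2 0.22, SE 0.08, adjusted p = 0.0402) with overlapping groups. Its call was lost without any one of A1, A2, A5, NAIVE, A1_plus or A2_plus, with adjusted p of 0.0732 to 0.0955, and with the line as a replicate block (adjusted p = 0.12).

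Behind the fork, DNA ligase I and the single-strand binding protein RPA rose in part. Lig1, which seals Okazaki fragments, had 109.9, 114, 106, 133 and 115 CPM in WT, 220.0, 199, 208 and 188 in Apc, and 105, 117, 124 and 94.1 in P-Rspo3. Its increase was 0.80 (SE 0.07, adjusted p = 5.76e-06). Rpa1, the largest RPA subunit, had 90.4, 82.1, 73.7, 95.3 and 98.7 CPM in WT, 152, 138, 148 and 124 in Apc, and 90.3, 97.5, 109 and 87.7 in P-Rspo3, and rose by 0.66 (SE 0.09, adjusted p = 0.000138). Rpa2 had 44.9, 37.8, 40.1, 49.2 and 48.6 CPM in WT, 71.9, 65.8, 70.0 and 59.8 in Apc, and 40.3, 44.0, 44.3 and 40.1 in P-Rspo3. Rpa1 and Rpa2 both separated Apc from the rest, and Rpa2 rose by 0.58 (SE 0.09, adjusted p = 0.000304). The smallest subunit, Rpa3, had 0.14 (95% interval -0.09 to 0.37, adjusted p = 0.288). Fen1, the flap nuclease, had 53 to 191 counts per library and 84.2% of its exonic bases shared with Gm10143 and Tmem258. It rose by 0.63 (SE 0.22, adjusted p = 0.0309), a call lost without any one of A2, A5, A2_plus or A5_plus (adjusted p of 0.0599 to 0.0666) and with the replicate block (adjusted p = 0.0633).

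Among the enzymes that supply deoxynucleotides, both subunits of ribonucleotide reductase and thymidylate synthase rose. Rrm1 had 157, 164, 144, 188 and 169 CPM in WT, 316, 296, 298 and 269 in Apc, and 163, 197, 179 and 137 in P-Rspo3. The increase was 0.82 (SE 0.08, adjusted p = 8.61e-06). Rrm2, the subunit that varies with the cell cycle, had 108, 78.9, 74.1, 87.5 and 78.3 CPM in WT, 147, 123, 122 and 121 in Apc, and 81.6, 56.8, 96.7 and 71.5 in P-Rspo3. Rrm2 varied most of the members within P-Rspo3, and rose in Apc by 0.57 (SE 0.11, adjusted p = 0.00122). Tyms had 59.3, 44.9, 48.0, 53.6 and 55.3 CPM in WT, 90.9, 78.5, 79.8 and 70.1 in Apc, and 55.4, 59.0, 68.6 and 50.1 in P-Rspo3, and rose by 0.59 (SE 0.10, adjusted p = 0.000365). Tyms has 1 named pseudogene, so a part of its reads may not have been assigned uniquely. Dut, which removes dUTP, rose by 0.63 with the filter on counts (SE 0.08, adjusted p = 4.65e-05). Tk1, the salvage kinase of thymidine, had 67.3 to 75.6 CPM in WT and 70.5 to 88.4 CPM in Apc, and its change was 0.09 (95% interval -0.07 to 0.25, adjusted p = 0.307), although upper-quartile scaling and both FPKM fits put it past the threshold.

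The 4 flox lines allowed a comparison within each line. Apc exceeded WT in all 4 lines for 36 of the 43 genes and in 3 lines for 6, and Pold2 was lower in all 4. The median log2 ratio over the genes was 0.74 in line 1, 0.76 in line 2, 0.92 in line 5 and 0.36 in line 6. Line 6 combined the highest WT library with the lowest Apc library, and 36 of 43 genes were still higher in Apc there. The matching shares over all genes were not counted within lines. With the line as a replicate block, edgeR placed 32 of 40 members higher, against 27% of tested genes, and 5 of them past 2-fold, against 11.9%. Gins1 and Pole2 joined Cdc6, Mcm2 and Mcm4 there.

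**Figure D5:**
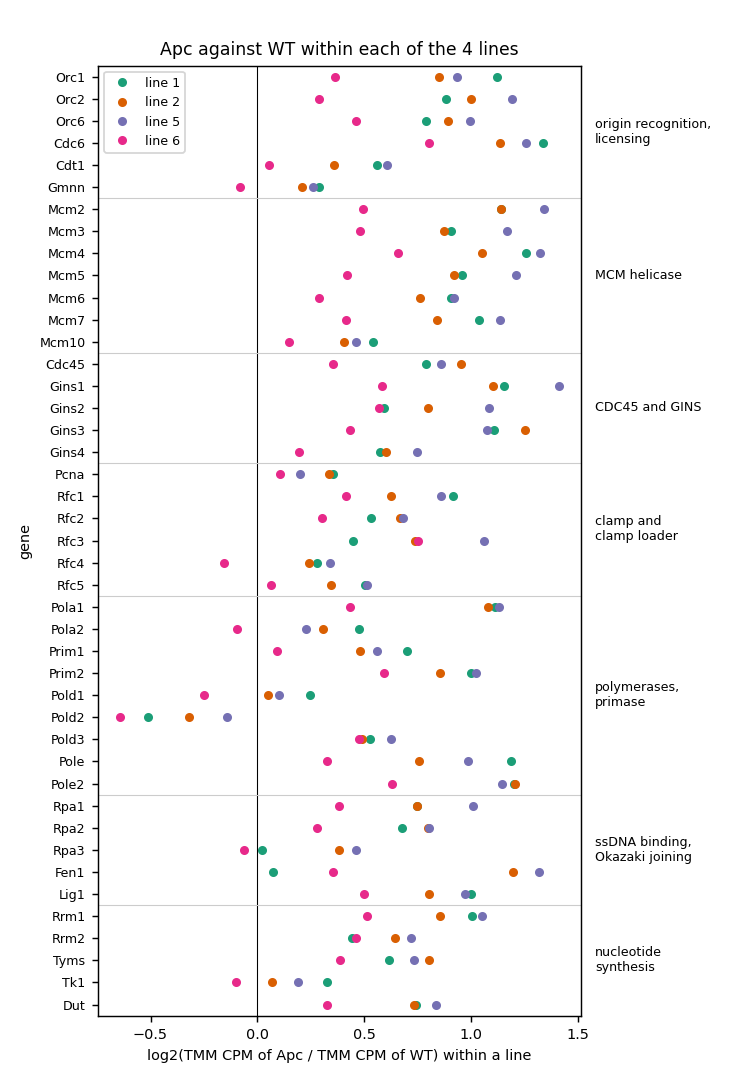
Log2 ratio of the TMM-scaled CPM of Apc to that of WT within each of the 4 lines, for the 43 genes by role. Points of line 6 are leftmost for most genes, with a median of 0.36, and all 4 points of Pold2 lie left of 0.

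The second comparison addressed whether the Ptprk-Rspo3 inversion, in medium without R-spondin, gives the same expression as WT in medium with it. None of the 40 tested members passed the threshold with edgeR in P-Rspo3 against WT, where 0.00625% of the 15992 tested genes rose and 0.0% fell. At an unadjusted p under 0.05 there were 2 members, Pcna and Prim2, where 13.5% of tested genes had one. DESeq2 called 1 of 40 members lower, Pcna, where it called 1.9% of tested genes lower and 1.28% higher. On log2(FPKM + 1), limma called 0 members, with 0.025% of tested genes higher and 0.05% lower. With WT of the flox lines only, edgeR called 0 members, with 232 of 15756 tested genes higher and 153 lower. With every WT library in edgeR, the median log2 fold change was 0.02 over the members and 0.00 over all genes. The 95% intervals were narrow enough to bound the differences, since all 40 lay within a 2-fold change in either direction and 39 within 1.5-fold. The lowest lower bound was -0.50, for Rrm2, and the highest upper bound was 0.60, for Orc2.

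Pcna and Prim2 were the members whose interval left out 0. The change in Pcna was -0.27 (95% interval -0.42 to -0.12, adjusted p = 0.142), with all 4 P-Rspo3 libraries below all 5 WT libraries. Of the 40 members, Pcna alone was separated in this way, against 2.54% of tested genes, and 0 were separated with P-Rspo3 higher, against 2.34%. DESeq2 gave Pcna an adjusted p of 0.00639, and the adjusted p missed the threshold in every other fit run. Prim2 had 0.31 (95% interval 0.07 to 0.54, adjusted p = 0.25), with overlapping groups. Cdt1, with the filter on counts, had -0.23 (95% interval -0.40 to -0.07, adjusted p = 0.213) and groups that did not overlap. The helicase subunits Mcm2 to Mcm7 had -0.14 to -0.03, and each of their intervals held 0.

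The third comparison set the mutant groups against each other in the same EN medium. Medium is shared here, but line origin is not. Of the 40 tested members, 35 were higher and 1, Pold2, lower in Apc than in P-Rspo3, where 28.7% of the 16456 tested genes were higher and 27.7% lower. The groups did not overlap in 34 members with Apc higher, against 27.9% of tested genes, and in 0 with Apc lower, against 26.0%. The median was 0.57 over the members and 0.00 over all genes. Cell type markers differed here too. All 12 enterocyte and all 6 goblet cell markers were lower in Apc, and of 6 Paneth cell markers 5 were lower and 1 higher. Of the 2 cycling cell markers 1 passed, with log2 fold changes of 0.28 and 0.61 for the 2. The part of these shifts in the members' differences was not tested. The Apc libraries are those of the first comparison, so the values are not independent of it. Cdc6 (log2 1.28, adjusted p = 6.26e-06), Mcm2 (1.17, adjusted p = 1.01e-05), Mcm4 (1.15, adjusted p = 4.52e-06) and Gins1 (1.00, adjusted p = 5.55e-05) were more than 2-fold higher, where 13.4% of tested genes were. Gins1 lay at the threshold and was under it without any one of A1_plus, EN15d, EN4d or EN_F.

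The members Rfc4, Rpa3, Tk1 and Gmnn did not pass. Their log2 fold changes were 0.05 (95% interval -0.19 to 0.29), 0.05 (-0.24 to 0.34), 0.10 (-0.18 to 0.37) and 0.19 (0.01 to 0.38). Gmnn passed under upper-quartile scaling, in both FPKM fits, with the FPKM filter at 1, and without A6_plus or EN_M. Rfc4 passed in both FPKM fits (limma, adjusted p of 0.04 and 0.0395). Pcna was higher in Apc by 0.54 (95% interval 0.38 to 0.70, adjusted p = 0.000168). The call on Pold2 (log2 -0.38, adjusted p = 0.0448) was lost without any one of the 4 Apc libraries, EN15d, EN4d or EN_M, with adjusted p of 0.0501 to 0.135, and its groups overlapped. The calls on Rfc5 (log2 0.24, adjusted p = 0.0411) and Pold1 (log2 0.31, adjusted p = 0.0312) were each lost without any one of A1_plus, A5_plus, EN4d or EN_F.

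Genes with related roles outside the list were counted in the same fits. Of 30 other fork and origin genes, all tested, 24 rose and none fell in Apc against WT, with a median of 0.47, where 30.0% of tested genes rose and 29.0% fell. Atad5, which unloads the clamp, rose by 1.01 (SE 0.11, adjusted p = 1.45e-05), Timeless of the fork protection complex by 0.93 (SE 0.09, adjusted p = 1.06e-05), Chaf1b, a histone chaperone subunit, by 0.91 (SE 0.09, adjusted p = 6.82e-06), and Dscc1, of an alternative clamp loader, by 0.90 (SE 0.13, adjusted p = 0.000135). None of the 30 passed in P-Rspo3 against WT, where 4 had an unadjusted p under 0.05, beside 13.5% of tested genes. In Apc against P-Rspo3, 19 were higher and none lower, beside 28.7% and 27.7% of tested genes.

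The 30 other nucleotide synthesis genes were divided. In Apc against WT 18 rose and 3 fell, with a median of 0.34, beside the same 30.0% and 29.0% of tested genes. The purine enzyme Paics rose by 1.04 (SE 0.10, adjusted p = 5.4e-06), and Cad, the first enzyme of pyrimidine synthesis, by 0.73 (SE 0.15, adjusted p = 0.00179). The kinase Cmpk1 fell by 1.29 (SE 0.06, adjusted p = 4.99e-08), and Mthfd2, a mitochondrial folate enzyme, fell by 1.08 (SE 0.25, adjusted p = 0.00349). Samhd1, which degrades deoxynucleotides and is named after its value was seen, fell by 0.71 (SE 0.12, adjusted p = 0.000396). Dctd, the dCMP deaminase, rose by 0.88 (SE 0.09, adjusted p = 9.48e-06). None passed in P-Rspo3 against WT, where none had an unadjusted p under 0.05.

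Of 17 regulators of the G1/S transition, 8 rose and 2 fell in Apc against WT, where 30.0% of tested genes rose and 29.0% fell. E2f1 rose by 0.99 (SE 0.09, adjusted p = 3.33e-06), and the repressor E2f7 by 1.06 (SE 0.15, adjusted p = 9.63e-05). Ccne1, cyclin E1, rose by 0.84 (SE 0.17, adjusted p = 0.00128). E2f2 fell by 2.23 (SE 0.12, adjusted p = 1.1e-07), from a mean of 84.6 to 18.3 CPM. The counts of Rb1, the retinoblastoma gene, fell by 1.73 (SE 0.12, adjusted p = 8.75e-07), whereas its FPKM was higher in Apc, so its direction depends on the file used. Of 8 S-phase checkpoint genes 6 rose and none fell, among them Chek1 by 0.76 (SE 0.11, adjusted p = 0.000107) and Hus1 by 0.59 (SE 0.11, adjusted p = 0.00068). No gene of these lists passed in P-Rspo3 against WT. An unadjusted p under 0.05 was reached there by 3 of 17 regulators and 3 of 8 checkpoint genes, beside 13.5% of tested genes.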

How the data were processed

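Per the labels, STAR (GRCm38) was the aligner. The authors deposited raw counts by gene, made with HTSeq 0.6.0, and FPKM values, made with Cufflinks 2.2.1. The annotation release and strand setting are not given in the sources used here, so values of genes that overlap others or have near-identical copies are uncertain. Symbols, coordinates and exon overlaps came from GENCODE M21 (GRCm38), and promoters from RefSeq. Of 15 libraries, 13 were grouped by their genotype labels. LIPO and NAIVE_F, whose titles and genotypes conflict, entered alternatives only.

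The quasi-likelihood test of edgeR 4.0.16 (R 4.3.3, TMM, glmQLFit and glmQLFTest at their defaults) was run on the counts in a separate fit per comparison. Genes needed 4 or more libraries with an FPKM no lower than 0.1. Adjusted p is by Benjamini-Hochberg over all genes tested, and the threshold was 0.05. Rose, fell and passed refer to it, and 2-fold to an absolute log2 fold change above 1. SE is the absolute log2 fold change over the square root of F, and intervals are 95%. Depth was 28902729 to 35528495 counts in the 13 grouped libraries. Cdt1, Gins2 and Dut were tested with filterByExpr, chosen after the data were seen. The main edgeR fits were tested on simulated counts, and the other tests, scalings, filters and designs were not.

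Members and lists were chosen with earlier results of these data known. Values in every library are given for genes past 2-fold in any comparison and for up to 3 genes per role by p in Apc against WT. Pcna and Pold2 were added after their values were seen. Of other lists, up to 4 passing genes with the largest change and fixed landmarks are named, except 1 that is not reported here. Alternatives were other scalings, filters and tests (DESeq2 1.42.0, limma 3.58.1 on log2(FPKM + 1) and log2(FPKM + 0.1)), a joint fit of the 3 groups, fits that omit a library in turn, WT without NAIVE, and a replicate block by line. The block rests on the labels, since A1 and A1_plus and so on are the same lines. Deviations from the group means correlated with a median of 0.093 over the 4 same-line pairs (0.022 to 0.2) and -0.03 over the 12 others.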

Additional observations from a re-analysis of the deposited data

Results flagged for a closer look

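In 6 of 129 groups of libraries (43 genes in 3 groups), 1 library stood far from the others by Dixon's test. Chance flags about 1 in 20 groups, or 5%. In WT, A6 was high for Pola1, at 55.9 CPM with 38.2 to 43.1 in the others, and for Pola2, at 67.4 CPM with 56.6 to 59.4. In P-Rspo3, EN15d was high for Pola2, at 58.5 CPM with 54.0 to 54.5. In Apc, A6_plus was low for Pold2, at 65.5 CPM with 78.9 to 81.6, and for Rpa3, at 28.6 CPM with 32.2 to 32.6. In Apc, A1_plus was high for Rrm2, at 147 CPM with 121 to 123.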

How the results depend on the processing

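The list's direction in Apc against WT and in Apc against P-Rspo3 was the same under every alternative run, and no member's called direction reversed. Of members past 2-fold, Apc against WT had 3, and 6 with upper-quartile scaling, 5 with all groups in 1 fit, 12 and 16 with limma on log2(FPKM + 1) and log2(FPKM + 0.1), 5 with WT of the flox lines only and 5 with the line as a replicate block. Of these alternatives, the matching share over all genes was counted only for limma on log2(FPKM + 1) and the block. The median over all genes moved as well, from 0.00 to 0.09 with upper-quartile scaling and to 0.17 and 0.28 in the FPKM fits. Each library left out gave 1 (without A5) to 6 (without A6), with 2 without A1 or A2 and 5 without NAIVE, A2_plus or A6_plus. The block changed no call other than those on Pola2 and Fen1 given above. The decrease in Pold2 gave 0 members lower in both FPKM fits, and the members' median was 0.88 and 0.95 there.

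In Apc against P-Rspo3 the 4 members past 2-fold became 7 with upper-quartile scaling and 13 and 15 in the FPKM fits, and 3 to 7 with a library left out, 7 without A6_plus. The matching shares over all genes were not counted for these alternatives. The median over all genes moved as well, from 0.00 to 0.10 with upper-quartile scaling and to 0.16 and 0.25 in the FPKM fits. The 1 member lower became 0 with upper-quartile scaling, in both FPKM fits, and with the 2 conflicting libraries added, and 0 to 1 with a library left out. The members' median was 0.78 and 0.83 in the FPKM fits. In P-Rspo3 against WT 1 member was lower with DESeq2, and no other alternative called any. The members' median there took either sign, from -0.03 without EN_M to 0.09 without EN_F. The causes were not tested. The intervals given with the genes show what 4 or 5 libraries a group could resolve.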

Other observations

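The 2 libraries left out of the groups lay within the range of the WT libraries in these genes as a whole. The median over the 43 genes of the log2 ratio to the WT mean was -0.11 in LIPO, whose genotype label is WT, and 0.04 in NAIVE_F, whose genotype label is P-Rspo3. The 43 genes took 0.247% of counts in LIPO and 0.261% in NAIVE_F. Single genes could lie outside it. Cdc6 had 21.0 CPM in LIPO and 23.5 CPM in NAIVE_F, and Mcm2 had 98.9 and 100.3 CPM, beside WT minima of 21.3 and 100.8 CPM. Pcna had 189 CPM in LIPO, below the WT minimum of 192.7 CPM. In NAIVE_F it had 225 CPM, above every WT and P-Rspo3 library.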
